A study of Mus musculus with 48 samples.

Results

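Glutathione S-transferases join the tripeptide glutathione to electrophilic compounds, among them products of lipid peroxidation. The transcripts of 10 glutathione S-transferase genes were followed in mouse lung, chosen by symbol from the 47561 genes of the expression table. They were Gsta3 and Gsta4 of the alpha class, Gstm1, Gstm2 and Gstm5 of the mu class, Gstp1 of the pi class, Gsto1 of the omega class, Gstt1 of the theta class, and the membrane-bound Mgst1 and Mgst3. All 10 passed the filter on low values in every comparison. The other 17 glutathione S-transferase genes in the table were used as a comparison list.

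RNA sequencing was available for the lungs of 48 adult mice, with 3 mice in each of 16 groups. The strains were C3H (labelled C3H/hen) and C57B (labelled C57Bl/6), and males and females of each are written C3HM, C3HF, C57BM and C57BF. Every mouse had 1 intraperitoneal injection, either of saline or of aurothioglucose (ATG) at 25 mg/kg, and then spent 96 h in room air or in hyperoxia (over 95% oxygen). ATG is a gold compound that inhibits thioredoxin reductase. The series' own description gives ATG to every mouse, so it is the label of each mouse that makes it a saline control. That description also names the J substrain of C57Bl/6 whereas the paper's methods name the N substrain. The paper describes the mice that it analysed as healthy and not exposed, and its methods name no injection. Mice are called by the number in their label, and each number belongs to 1 mouse, so nothing pairs mice of different groups. Values are FPKM, fragments scaled to transcript length and to the size of the library, so that genes can be compared with each other. The number of reads behind them is unknown, and only the spread between mice measures their precision.

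Cytosolic glutathione S-transferases act as dimers, and the classes differ in the compounds that they accept. Mgst1 and Mgst3 belong to a separate membrane protein family that also contains prostaglandin and leukotriene synthases. In the lung the enzymes are known from club cells and alveolar cells, and many of their genes are known targets of NRF2, the transcription factor that responds to electrophiles and oxidants through antioxidant response elements (AREs). Some are also known targets of the aryl hydrocarbon receptor (AHR), and Gstp1 is known for control by AP-1.

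The libraries differed in ways that can bear on all 10 genes. Scgb1a1, the transcript of the main secreted protein of club cells, made up 10.4% to 30.2% of the summed FPKM in saline lungs in room air and 1.20% to 6.46% in saline hyperoxia. Since FPKM is scaled to the whole library, such a transcript can move the FPKM of other genes. How far it did so here was not tested. Within groups, Pearson's r over 16994 genes was between 0.933 and 0.979, and the lowest value was between mice 1 and 2 of C3HM in room air with saline. In that group r was 0.952 between mice 2 and 3 and 0.958 between mice 1 and 3. Mice 1 and 3 differed from mouse 2 in Gsta3 (below), and the comparisons that use them were also fitted without both. This choice was made after the data were seen. It leaves mouse 2 alone in its group, although mice 1 and 3 are more like each other than like mouse 2. No pair of libraries was identical. The defining markers of club cells and of alveolar type 1 and type 2 cells were found in the table and above 0 in some lung for 5 of 5 genes in each list. The summed FPKM of 4 liver genes was at most 18.4 in any lung.

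The 10 genes lie on 6 chromosomes of GRCm38 (mm10). Gstm5 (chr3:107895821-107898686), Gstm2 (chr3:107981702-107986453) and Gstm1 (chr3:108012255-108017973) lie in 1 cluster. Gstp1 (chr19:4035407-4037985) and Gsto1 (chr19:47854970-47864790) are on the same chromosome, and so are Gsta3 (chr1:21240589-21265661) and Mgst3 (chr1:167371966-167393841). Gsta4 is at chr9:78182774-78209349, Gstt1 at chr10:75783813-75798584 and Mgst1 at chr6:138140316-138156755. Similar sequences limit some of these values, since the handling of reads with several matches is not given in the sources used here. For Gstm1, 29.4% of the 30-base sequences of its transcripts also occur in other genes (23.1% in Gstm2-ps1, a processed pseudogene at chr5:116632908-116633564). For Gstp1 the share was 38.8%, all of it found in Gstp2, and 24.9% also occur in Gstp-ps. It was 12.9% for Gstm2, 11.2% for Gstm5 (an overlapping antisense gene, 4933431E20Rik) and under 3% for each of the other 6 genes.

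Promoters are shown for the 5 genes that changed in hyperoxia in both saline and ATG mice (Gstt1, Gstm1, Gstm2, Gsto1 and Gstp1) and for Gsta3, whose promoter holds an ARE core. The sequences are from RefSeq (GRCm38.p6), up to 250 bases before the start site, 5′ to 3′ on the gene's strand. Capitals mark matches, on either strand, to the ARE core TGACNNNGC, the AP-1 site TGACTCA or the AHR core GCGTG. The windows are chr10:75797732-75797981 (minus strand) for Gstt1, chr3:108017974-108018223 (minus) for Gstm1, chr3:107986424-107986670 (minus) for Gstm2, chr19:47854723-47854972 (plus) for Gsto1, chr19:4037956-4038162 (minus) for Gstp1 and chr1:21240335-21240584 (plus) for Gsta3.
Gstt1: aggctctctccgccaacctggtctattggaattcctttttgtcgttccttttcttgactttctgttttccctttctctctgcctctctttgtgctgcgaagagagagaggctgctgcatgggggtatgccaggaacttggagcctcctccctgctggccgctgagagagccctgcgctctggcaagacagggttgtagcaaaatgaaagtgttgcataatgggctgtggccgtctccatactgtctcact
Gstm1: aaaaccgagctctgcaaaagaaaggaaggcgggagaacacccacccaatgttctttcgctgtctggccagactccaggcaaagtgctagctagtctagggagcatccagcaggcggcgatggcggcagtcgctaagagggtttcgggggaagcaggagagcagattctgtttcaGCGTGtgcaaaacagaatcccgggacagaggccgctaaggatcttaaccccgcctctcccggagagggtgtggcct
Gstm2: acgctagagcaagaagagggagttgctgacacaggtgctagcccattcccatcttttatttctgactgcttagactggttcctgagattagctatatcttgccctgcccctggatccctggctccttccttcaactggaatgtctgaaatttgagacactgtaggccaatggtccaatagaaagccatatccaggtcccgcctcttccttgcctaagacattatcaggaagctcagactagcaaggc
Gsto1: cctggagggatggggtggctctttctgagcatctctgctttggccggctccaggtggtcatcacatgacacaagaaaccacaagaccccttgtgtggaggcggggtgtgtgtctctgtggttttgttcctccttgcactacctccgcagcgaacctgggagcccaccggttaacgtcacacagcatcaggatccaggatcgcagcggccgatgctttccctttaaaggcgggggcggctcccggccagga
Gstp1: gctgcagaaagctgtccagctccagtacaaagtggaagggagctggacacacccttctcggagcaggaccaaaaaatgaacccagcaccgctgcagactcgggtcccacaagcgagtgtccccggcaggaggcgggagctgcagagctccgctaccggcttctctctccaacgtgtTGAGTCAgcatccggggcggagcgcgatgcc
Gsta3: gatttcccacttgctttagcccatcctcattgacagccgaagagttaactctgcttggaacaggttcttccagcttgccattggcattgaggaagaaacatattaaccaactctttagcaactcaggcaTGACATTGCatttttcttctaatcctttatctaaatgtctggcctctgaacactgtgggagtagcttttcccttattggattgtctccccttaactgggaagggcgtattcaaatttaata
Of all 32851 promoters searched in the same way, 10.2% held the ARE core, 4.46% the AP-1 site and 28.2% the AHR core, counting each motif on its own. A promoter was found for 9 of the 10 genes, and 11 promoters in all, since Gstm1 and Mgst1 each have another. The ARE core was matched in Gsta3, Gstm5 and Mgst1, the AP-1 site in Gstp1 and Gstm5, and the AHR core in Gstm1, Gstp1, Gstm5 and Mgst3. In Gstm5 the letters of the AHR core overlap both other motifs. The letters of none of the 3 motifs occur in the windows of Gstt1, Gstm2 and Gsto1, nor in the other promoter of Mgst1. The window of Gstt1 lies inside the span of the gene given above, so it is not upstream of the whole gene. The match to the AHR core in Gstp1 lies nearer to its start than the bases shown.

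At baseline (saline, room air, 12 lungs), Mgst1 had the highest FPKM and Gstm5 the lowest. The median FPKM of Mgst1 was 551 (318 to 834), followed by Gstm1 at 316 (208 to 595). Gsta3 came next at 119 (43.4 to 167), then Gstm2 at 114, Gstt1 at 98.3, Gsta4 at 94.1, Gsto1 at 92.4 and Gstp1 at 90.6. Neighbours in this middle group had overlapping ranges. Gstm2 was above Gstt1 in 12 of 12 lungs, whereas for the other neighbours from Gsta3 to Gstp1 the order held in 6 to 8 of 12 lungs and is not beyond the spread between mice. Mgst3 at a median FPKM of 31.9 (27.0 to 36.8) and Gstm5 at 11.6 (7.25 to 18.9) did not overlap with the genes above them. Mgst1 and Gstm1 overlapped, although Mgst1 was the higher of both in 11 of 12 lungs. The FPKM summed over the 10 genes was 1526 ± 242 (SD, n = 12).

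**Figure D1:**
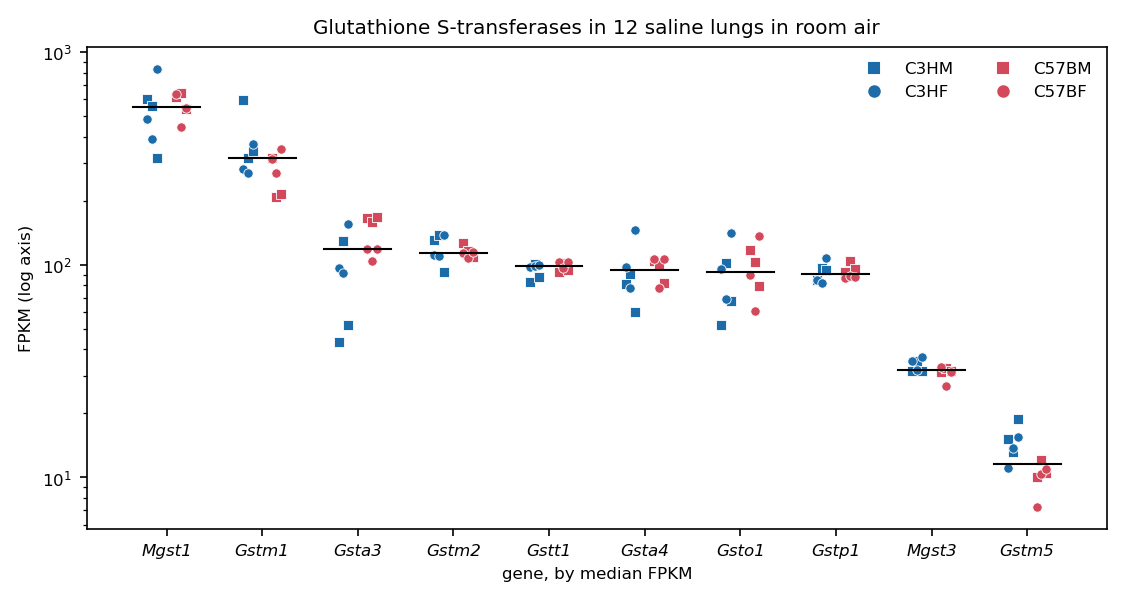
FPKM of the 10 glutathione S-transferase genes in the 12 saline lungs in room air (log axis), ordered by median FPKM (black line), with 1 point per mouse by strain and sex. Medians run from 551 for Mgst1 to 11.6 for Gstm5, and the genes between Gsta3 and Gstp1 overlap.

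Strain differences at baseline were few among these genes. Gstm5 was the only 1 of 10 that passed the threshold (adjusted p under 0.05), where 11.8% of all 15546 genes tested did (3.92% higher and 7.87% lower in C3H). Under quantile scaling the calls over all genes were 974 higher and 930 lower, in place of 609 and 1223. Its FPKM was 11.1 to 18.9 with a median of 14.4 in 6 C3H lungs, and 7.25 to 12.1 with a median of 10.4 in 6 C57B lungs. The strains overlapped. On the log2(FPKM + 1) scale, the difference C3H minus C57B was 0.47 (SE 0.13, limma, adjusted p = 0.0400). The call was lost without C3HM mice 1 and 3 (0.36, adjusted p = 0.19), and of the 12 fits that each left out 1 mouse it was kept in 3, those without mice 2, 25 and 39. Reads of Gstm5 and of 4933431E20Rik cannot be told apart if strand was not used in the counting, which is not stated.

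Gsta3, a glutathione S-transferase of the alpha class, had the widest spread at baseline relative to its mean (FPKM 117 ± 41.7, SD, n = 12). Its FPKM was 43.4, 129 and 52.0 in C3HM mice 1, 2 and 3, 96.3, 91.6 and 155 in C3HF, 166, 159 and 167 in C57BM, and 119, 104 and 119 in C57BF. C3HM mice 1 and 3 had the lowest values of the 12 and C57BM the highest. The strain difference was -0.66 (SE 0.23) with an adjusted p of 0.088 by limma, and without mice 1 and 3 it was -0.19 (adjusted p = 0.53). Without mouse 2 it was -0.90 (adjusted p = 0.00099), and the interaction of strain and sex, which was -1.26 (adjusted p = 0.24) in all 12 lungs, passed the threshold at -1.73 (adjusted p = 0.0035). Without mice 1 and 3 the interaction was -0.31 (adjusted p = 0.91).

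In room air after ATG, Gsta3 was lower in C3H than C57B. Its FPKM was 60.6 to 158 with a median of 101 in 6 C3H lungs and 122 to 202 with a median of 170 in 6 C57B lungs. The strains overlapped, and the difference was -0.65 (SE 0.16, limma, adjusted p = 0.0070). It was past the threshold in all 24 fits that left out 1 mouse. Only the fits that left out a room air mouse could move this estimate, since hyperoxia mice do not enter the contrast. Gsta3 was the only 1 of the 10 genes called there, against 18.7% of all genes tested. These lungs share no mouse with the saline lungs, and the interaction of strain and ATG for Gsta3 was 0.01 (SE 0.31, limma, adjusted p = 1.00).

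Sex was not accompanied by a called difference in any of the 10 genes. The count of calls for sex at baseline was 0 of 10 by limma, with 0 at an unadjusted p under 0.05, where 0.669% of all genes were called. The 95% intervals of the differences, male minus female, reached from -0.68 (Gsto1) to 0.49 (Gstm5) on the log2 scale. The interaction of strain and sex also called 0 of 10 (2 at an unadjusted p under 0.05, Gsta3 and Gstm1), where 0% of all genes were called. For sex and hyperoxia in saline mice 0 of 10 passed (1 at an unadjusted p under 0.05, Gsta4), where 0.0368% of all genes did.

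Hyperoxia in saline mice changed 5 of the 10 genes, with Gstt1, Gstm1 and Gstm2 lower and Gsto1 and Gstp1 higher. This share stands against 60.1% of all 16321 genes tested (31.8% higher and 28.3% lower), so the members were not called more often than genes at large. The median log2 change was -0.01 over the 10 genes and 0.01 over all genes tested. The FPKM summed over the 10 genes was 1409 ± 235 (SD, n = 12) in hyperoxia. Without C3HM mice 1 and 3 the same 5 genes were called, with log2 changes of -1.73 for Gstt1, -0.95 for Gstm1, -0.59 for Gstm2, 0.86 for Gsto1 and 0.55 for Gstp1.

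Gstt1, the theta class enzyme that acts on small halogenated and epoxide compounds, fell the most of the 10 genes. Its FPKM in saline lungs was 82.7 to 104 with a median of 98.3 in room air, and 14.5 to 52.7 with a median of 28.2 in hyperoxia (n = 12 each). Every lung in hyperoxia was below every lung in room air, which held in this direction for 2.13% of all genes tested. The log2 change was -1.69 (SE 0.12, limma, adjusted p = 2.3e-10). In C3HM the FPKM in hyperoxia was 48.0, 33.2 and 52.7, in C3HF 40.8, 38.8 and 19.5, in C57BM 22.9, 27.5 and 26.0, and in C57BF 14.5, 29.0 and 21.3. Mouse 33 of C3HF was the only C3H lung within the range of C57B.

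Gstm1, the mu class enzyme with the highest FPKM of the 5, also fell. Its FPKM in saline lungs had a median of 316 (208 to 595) in room air and of 145 (76.2 to 271) in hyperoxia. The ranges overlapped through C3HM, in which the 3 hyperoxia lungs had FPKM values of 261, 266 and 271, above those of C57BM mice 14 and 15 in room air (208 and 214). The log2 change was -1.03 (SE 0.13, limma, adjusted p = 1.6e-06), with an adjusted p of 1.5e-05 without C3HM mice 1 and 3. Gstm2-ps1, which shares sequence with Gstm1, had an FPKM of 92.4 and 101 in C3HM mice 1 and 3 and of 235 in mouse 2, whereas Gstm1 was at 595, 342 and 319 in mice 1, 3 and 2. With both taken as 1 gene, weighted by length, the change in hyperoxia was -0.95 (adjusted p = 2.2e-06).

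Gstm2, the neighbour of Gstm1 in the cluster, fell too. Its FPKM in saline lungs had a median of 114 (92.4 to 139) in room air and of 87.4 (52.0 to 112) in hyperoxia. The ranges overlapped, and the log2 change was -0.53 (SE 0.11, limma, adjusted p = 0.00023). For Gstm5, at the other end of the cluster, the FPKM had a median of 11.6 in room air and of 10.8 (7.76 to 13.8) in hyperoxia, with a log2 difference of -0.21 (SE 0.10, limma, adjusted p = 0.084).

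Gsto1, the omega class enzyme that reduces dehydroascorbate and methylated arsenic compounds, rose. Its FPKM in saline lungs had a median of 92.4 (52.4 to 141) in room air and of 175 (121 to 251) in hyperoxia. The ranges overlapped at the top of room air, where 2 lungs (C3HF mouse 27 at 141 and C57BF mouse 39 at 137) were above the lowest lung in hyperoxia, and the log2 change was 0.99 (SE 0.14, limma, adjusted p = 5.1e-06). Gstp1, the pi class enzyme, rose as well. Its FPKM had a median of 90.6 (81.8 to 107) in room air and of 136 (104 to 168) in hyperoxia, and 1 lung in hyperoxia, C57BM mouse 20 at an FPKM of 104, lay within the range of room air. The log2 change was 0.56 (SE 0.07, limma, adjusted p = 5.2e-07), and 0.37 under quantile scaling, still called. Gstp2, with which Gstp1 shares sequence, was not above the filter in saline lungs. The level of Gstp-ps, which also shares sequence with Gstp1, is not given here.

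The remaining genes were not called. The FPKM of Mgst1, which conjugates and reduces lipid peroxides in membranes, had a median of 551 in room air and of 509 (388 to 801) in hyperoxia. That of Gsta4, the alpha class enzyme with high activity on 4-hydroxynonenal, had a median of 94.1 (60.1 to 146) and of 88.3 (72.2 to 141). The 95% intervals of their differences were -0.31 to 0.24 for Mgst1 and -0.20 to 0.24 for Gsta4 on the log2 scale. Mgst3 had an interval of -0.12 to 0.24, and Gsta3 one of -0.03 to 0.67. Gsta3 was called without C3HM mouse 2 (0.44) or C57BF mouse 43 (0.43), and Gstm5 without C57BF mouse 37 or 45 (-0.26 each).

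**Figure D2:**
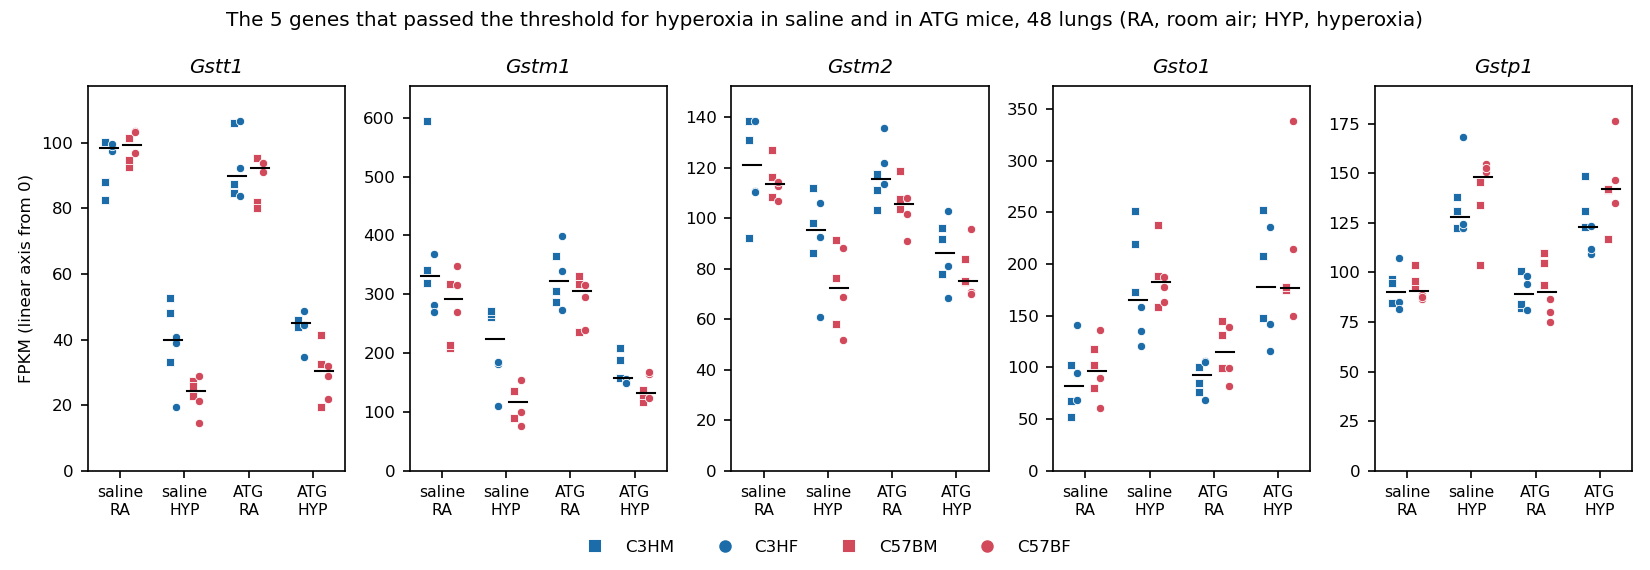
FPKM (linear axes from 0) of Gstt1, Gstm1, Gstm2, Gsto1 and Gstp1 in all 48 lungs by injection, air and strain, with 1 point per mouse and a black line at the median of 6 lungs. Gstt1 in saline hyperoxia (14.5 to 52.7) lies below every saline lung in room air (82.7 to 104), and the 5 genes moved in the same directions in saline and in ATG mice.

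The same 5 genes passed the threshold for hyperoxia in ATG mice, in the same directions and in 24 other lungs. Of all 16206 genes tested there, 61.8% were called. The FPKM of Gstt1 was 80.2 to 107 in room air and 19.6 to 48.6 in hyperoxia, and that of Gstm1 237 to 399 and 117 to 209 (n = 12 each). For these 2 genes every lung in hyperoxia was below every lung in room air, which held in this direction for 4.05% of all genes. The other 3 genes overlapped, with FPKM ranges in room air and hyperoxia of 91.1 to 136 and 68.5 to 103 for Gstm2, of 68.6 to 145 and 116 to 338 for Gsto1 and of 74.9 to 110 and 109 to 176 for Gstp1. The log2 changes were -1.34 (SE 0.10) for Gstt1, -1.0 (SE 0.08) for Gstm1 and -0.43 (SE 0.07) for Gstm2. They were 0.89 (SE 0.14) for Gsto1 and 0.55 (SE 0.06) for Gstp1. Under quantile scaling Gstp1 was at 0.31 and Gstm2 at -0.66, both still called. The adjusted p-values by limma were at most 1.8e-05. Mgst1 was not called (0.23, SE 0.12, adjusted p = 0.11), although it was without C57BF mouse 46 (0.32).

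Within saline mice, the falls of Gstt1 and Gstm1 were seen in each strain. In C57B, Gstt1 changed by -2.05 (SE 0.16) and Gstm1 by -1.29 (SE 0.19), Gstm2 by -0.68, Gsto1 by 0.95 and Gstp1 by 0.59. These 5 were the genes called (55.5% of all genes), and the 6 lungs in hyperoxia lay apart from the 6 in room air for Gstt1, Gstm1, Gstm2 and Gsto1, as they did for 32.4% of all genes. In C3H, Gstt1 changed by -1.32 (SE 0.16), Gstm1 by -0.78 (SE 0.19), Gsto1 by 1.03 (SE 0.20) and Gstp1 by 0.54 (SE 0.10), all with adjusted p of at most 0.0030 by limma. Gstt1 and Gstp1 did not overlap between C3H lungs in room air and in hyperoxia, as was so for 14.3% of all genes. The FPKM of Gsto1 was 52.4 to 141 in room air and 121 to 251 in hyperoxia in C3H, and 60.8 to 137 and 158 to 238 in C57B.

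In C3H, 7 of 10 genes were called, where 37.8% of all genes were, but 3 of the calls were close to the threshold. The median over all genes in C3H was 0.10, and -0.02 under median ratio scaling, with 2912 genes higher and 3111 lower in place of 4130 and 2039. Gstm5 was at -0.46 (adjusted p = 0.018), Gsta3 at 0.62 (adjusted p = 0.043) and Gstm2 at -0.38 (adjusted p = 0.0497) by limma. Without C3HM mice 1 and 3, Gsta3 was at 0.15 (adjusted p = 0.69) and Gstm5 at -0.35 (adjusted p = 0.17), whereas Gstm2 was at -0.49 (adjusted p = 0.048). Of the 24 fits that each left out 1 mouse, the call was kept in 22 for Gstm5 (lost without mouse 3 or mouse 8), in 11 for Gsta3 and in 7 for Gstm2. Leaving out a C57B mouse cannot move these estimates and moves only the error and the adjustment. Some calls were lost in this way, as without C57BM mouse 13 for Gsta3 (0.62, limma, adjusted p = 0.051) and Gstm2 (-0.38, adjusted p = 0.056). The call of Gsta3 was also lost under median ratio (0.47) and quantile (0.44) scaling, with a filter at an FPKM of 0.1 and with no filter. That of Gstm2 was lost with a pseudocount of 0.1, with a filter at an FPKM of 0.1, with no filter and with no trend. The FPKM of Gsta3 in these C3H lungs had a median of 93.9 (43.4 to 155) in room air and of 129 (108 to 184) in hyperoxia, and in C57B of 139 (104 to 167) and of 152 (71.1 to 192), where the log2 difference was 0.02 (SE 0.24). Mgst3, with a difference of 0.23 (SE 0.12, adjusted p = 0.14) in C3H, was called without C3HF mouse 33 (0.34).

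The difference between the strains' changes was called for 1 of 10 genes, Gstt1, where 11.5% of all genes were called. This interaction was 0.73 (SE 0.23, limma, adjusted p = 0.045), that is, a smaller fall in C3H than C57B. The median of this interaction over all genes was 0.15, and 0.00 when libraries were scaled by their median ratio, in which case Gstt1 was at 0.54 (adjusted p = 0.12). The call was also lost without C3HM mice 1 and 3 (0.65, adjusted p = 0.13), and of the 24 fits that left out 1 mouse it was kept in 5, those without mice 2, 8, 21, 33 and 44. The interaction was 0.51 (SE 0.27, adjusted p = 0.23) for Gstm1 and -0.49 (SE 0.21, adjusted p = 0.12) for Gstm5. Gsta3 passed the threshold without C3HM mouse 2 (0.84) and Mgst3 without C3HF mouse 33 (0.46), against 0.60 and 0.35 in all lungs.

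In saline hyperoxia, Gstm1, Gstt1 and Mgst3 were higher in C3H than C57B, 3 of 10 genes against 27.2% of all genes (16.1% higher and 11.1% lower in C3H). Under median ratio scaling the calls over all genes were 2269 higher and 2444 lower, in place of 2632 and 1809. The FPKM of Gstm1 was 110 to 271 with a median of 223 in C3H and 76.2 to 155 with a median of 118 in C57B (n = 6 each). That of Gstt1 was 19.5 to 52.7 with a median of 39.8 in C3H and 14.5 to 29.0 with a median of 24.5 in C57B. The FPKM of Mgst3, a microsomal enzyme with glutathione peroxidase activity, was 28.2 to 48.7 with a median of 41.1 in C3H and 21.9 to 39.0 with a median of 28.1 in C57B. For each of the 3 genes the strains overlapped. The differences on the log2 scale were 0.86 (SE 0.19, adjusted p = 0.0022) for Gstm1, 0.67 (SE 0.16, adjusted p = 0.0045) for Gstt1 and 0.47 (SE 0.12, adjusted p = 0.0075) for Mgst3 by limma. All 3 were past the threshold in each of the 24 fits that left out 1 mouse. Only the fits that left out a hyperoxia mouse could move these estimates, since room air mice do not enter the contrast. Gstm2 was at 0.35 (SE 0.15, adjusted p = 0.087), and was called without C57BM mouse 20 (0.43), C3HF mouse 33 (0.47) or C57BF mouse 44 (0.45).

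**Figure D3:**
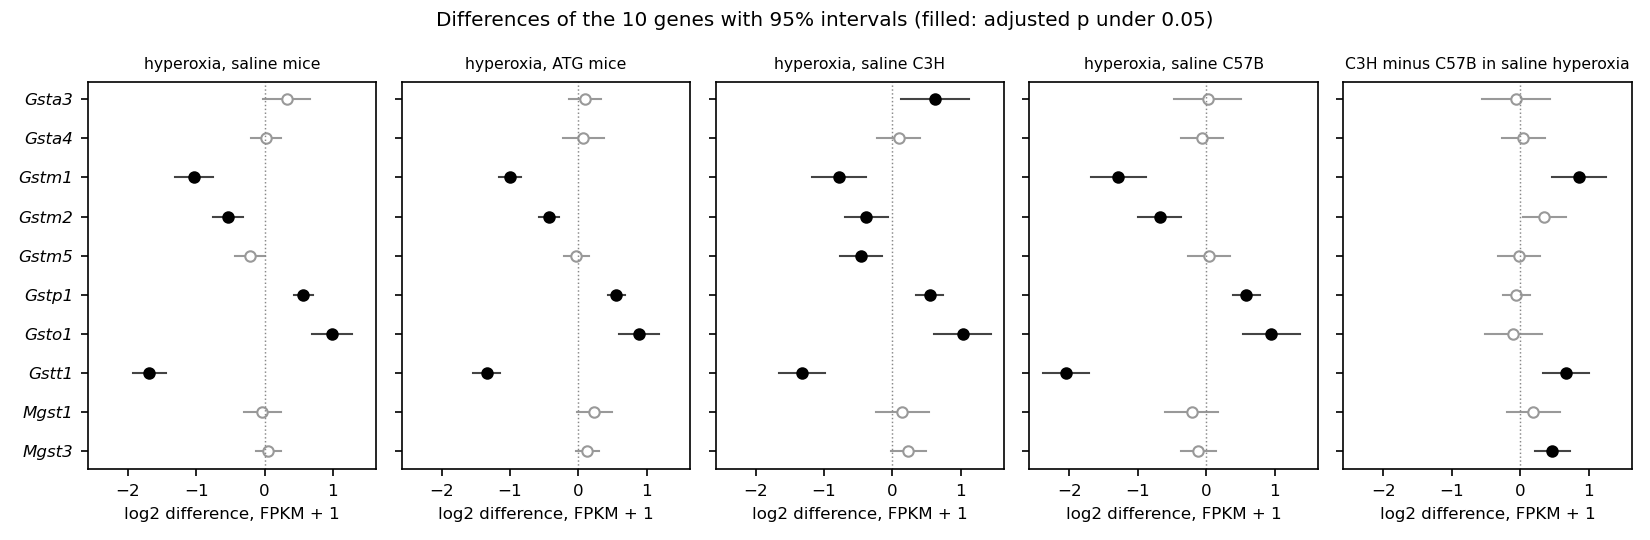
Differences of the 10 genes on the log2(FPKM + 1) scale with 95% intervals (limma), for hyperoxia minus room air in saline, ATG, saline C3H and saline C57B mice, and for C3H minus C57B in saline hyperoxia. Filled points have an adjusted p under 0.05. Gstt1 runs from -2.05 in C57B to -1.32 in C3H, and Gsto1 and Gstp1 are to the right of 0 in all 4 panels on hyperoxia.

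ATG was not accompanied by a called change in any of the 10 genes. In room air 0 of 10 were called by limma, with 0 at an unadjusted p under 0.05, where 0.0185% of all genes were called. The 95% intervals reached from -0.42 (Gstm5) to 0.56 (Gsta3). In hyperoxia 0 of 10 were called, with 1 at an unadjusted p under 0.05, where 5.47% of all genes were called. That 1 gene was Mgst1, with an FPKM of 388 to 801 and a median of 509 after saline and 402 to 843 and a median of 650 after ATG. Its difference was 0.26 (SE 0.12, limma, adjusted p = 0.21), and 0.34 (adjusted p = 0.044) without C57BF mouse 46. The interaction of ATG and hyperoxia called 0 of 10 (1 at an unadjusted p under 0.05), where 2.77% of all genes were called. For Gstt1 it was 0.35 (SE 0.15, limma, adjusted p = 0.21). The interaction of strain and ATG in room air called 0 of 10, with 0 at an unadjusted p under 0.05, and 0% of all genes.

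Patterns over the 16 groups were compared as group means of log2(FPKM + 1), each centred on its own mean, by the root mean square (RMS) difference over the 16 groups. A gene's distance from a flat profile, its own RMS over the groups, sets the scale. Among the members, Gstm1 and Gstt1 were nearest to each other (0.34, with own values of 0.59 and 0.80), as were Gstp1 and Gsto1 (0.28, with 0.30 and 0.51) and Gsta4 and Mgst1 (0.17, with 0.20 and 0.22). For Gsta3 the nearest member was Gsta4 (0.27, own value 0.37). For Gstm2, Gstm5 and Mgst3 the nearest members were Gstm5 (0.274), Mgst3 (0.235) and Mgst1 (0.184). They were no nearer than a flat profile (own values 0.271, 0.215 and 0.149), by a small margin for Gstm2. The measure depends on the size of changes as well as on their direction, and Gstm2 fell in hyperoxia as Gstm1 and Gstt1 did. Of all 16994 genes, Ccdc28a and Tmem50b were nearest to Gstt1 (0.14 and 0.15), Gm26903 and Pigb to Gstm1 (0.14 and 0.15), Dnajc14 and Yipf4 to Gstm2 (0.08 and 0.08), Shmt1 and Atp5b to Gsto1 (0.14 and 0.16) and Mtmr2 and Ptp4a2 to Gstp1 (0.08 and 0.09). Cyp39a1 and 9930014A18Rik were nearest to Gsta3 (0.15 and 0.18), Nme7 to Gsta4 (0.11), Begain and Arl6ip5 to Gstm5 (0.14 and 0.16), Styk1 and Setmar to Mgst1 (0.12 and 0.12) and Trappc6b and Nae1 to Mgst3 (0.09 and 0.09). The group means come from the same libraries, so these values describe likeness and carry no test.

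The other glutathione S-transferase genes fell more often than they rose in saline hyperoxia. Of 15 tested, 9 were lower and 4 higher, with a median log2 change of -0.46. Over all genes tested, 28.3% were lower and 31.8% higher, and these shares also stand beside the lists below. The largest changes were in Ptges (2.29, SE 0.31), which makes prostaglandin E from its endoperoxide precursor, Gstt3 (-1.17, SE 0.16), a neighbour of Gstt1 in class, Gsta1 (1.05, SE 0.17) and Gstm7 (-0.91, SE 0.13). The FPKM of Gsta1 was low, at a mean of 0.923 in room air and 2.84 in hyperoxia. In C3H against C57B at baseline, 2 of 14 were called (11.8% of all genes), Gstm6 (-0.98, SE 0.16) and Gstt3 (-0.58, SE 0.15), both lower in C3H. In saline hyperoxia, 6 of 15 were higher in C3H, with Ltc4s, Mgst2 and Gstt3 at 1.09, 1.04 and 0.85, and 1, Ptges, was lower (-1.98). Over all genes, 16.1% were higher and 11.1% lower in C3H there, and these shares also stand beside the lists below. Ltc4s makes the leukotriene that carries glutathione.

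Most genes of the list for glutathione supply rose in saline hyperoxia, with 8 of 12 higher, 1 lower (Slc1a4) and a median log2 change of 1.08. Gclc and Gclm, the subunits of the enzyme that limits glutathione synthesis, changed by 2.62 (SE 0.12) and 1.32 (SE 0.06). Slc7a11, the cystine importer, changed by 2.37 (SE 0.15). Chac1, which degrades glutathione but is counted among the 8, changed by 1.64 (SE 0.18). The mean FPKM of Gclc was 39.4 in room air and 271 in hyperoxia. At baseline 2 of 11 were lower in C3H than C57B, Gclc (-1.15, SE 0.14) and Ggct (-0.80, SE 0.21), and 0 were higher. In saline hyperoxia 6 of 12 were lower in C3H and 0 higher, with Gclc at -1.65 and Gclm at -0.91, whereas Gstm1, Gstt1 and Mgst3 were higher in C3H.

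Genes for the export of glutathione conjugates and their conversion to mercapturates were mixed, with 6 of 14 higher and 3 lower in saline hyperoxia. The exporters Abcc1 (0.91, SE 0.08) and Abcc3 (0.88, SE 0.16) rose, and Anpep (-1.70, SE 0.12), an aminopeptidase, fell. Ggt5, a gamma-glutamyl transferase, was the only 1 of 14 called at baseline and was lower in C3H than C57B (-0.82, SE 0.19). Of 20 known NRF2 targets, 19 rose and 0 fell in saline hyperoxia, with a median of 1.24, and Gclc, Gclm and Slc7a11 are in both lists. Among them were Srxn1 (2.23), Hmox1 (2.14) and Txnrd1 (2.11). At baseline 1 of 19 was higher and 3 were lower in C3H, and in saline hyperoxia 1 of 20 was higher and 12 were lower. Of 5 tested AHR targets, 2 rose and 1, Cyp1a1, fell, and 2 of the list are also NRF2 targets. Of 9 tested regulators (NRF2, its partners, AHR and its partner, and xenobiotic receptors), 6 rose and 1, Ahr, fell.

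Cell type markers moved with the same comparisons. In saline hyperoxia, club cell markers were lower in 3 of 5 and higher in 0, and their summed FPKM was 69950 to 231092 in room air and 7200 to 43606 in hyperoxia. Alveolar type 2 markers were lower in 4 of 5 and higher in 1, with sums of 25381 to 48867 and of 5697 to 21494. Neutrophil markers were higher in 4 of 4 and alveolar macrophage markers in 4 of 5 (1 lower), 1 of 5 endothelial markers was higher and 2 were lower, 1 of 5 markers of ciliated cells was higher and 2 were lower, and markers of B cells (4 of 4), T cells (3 of 3), heart muscle (3 of 4), erythroid cells (2 of 2 tested) and alveolar type 1 cells (3 of 5) were lower. The liver marker that could be tested was not called. Between strains in saline hyperoxia, 4 of 5 club cell markers were higher in C3H, with sums of 27943 to 43606 in C3H and of 7200 to 17878 in C57B, beside the higher FPKM there of Gstm1, Gstt1 and Mgst3. There, markers of alveolar type 1 cells (3 of 5), endothelial cells (3 of 5), T cells (2 of 3) and alveolar type 2 cells (1 of 5) were also higher in C3H, 1 of 5 alveolar macrophage markers was higher and 2 were lower, and 1 of 5 ciliated cell markers was lower. At baseline, markers of neutrophils (4 of 4), B cells (4 of 4), alveolar type 2 cells (3 of 5) and T cells (2 of 3) were lower in C3H, alveolar type 1 markers (4 of 5) and 1 of 2 erythroid markers were higher, and 1 of 5 alveolar macrophage markers was higher and 1 lower. In room air after ATG, where Gsta3 was lower in C3H, markers of ciliated cells (4 of 5), neutrophils (4 of 4), B cells (4 of 4), alveolar type 2 cells (3 of 5), T cells (2 of 3) and alveolar macrophages (1 of 5) were lower, those of alveolar type 1 cells (4 of 5), endothelial cells (4 of 5) and erythroid cells (1 of 2) were higher, and 0 of 5 club cell markers were called. Fewer cells of a type and less RNA per cell cannot be told apart in whole lung, and the part of these markers in the results was not tested.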

How the data were processed

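RNA of 48 mouse lungs was sequenced by the authors after polyA selection. Per the submitters' processing notes and the paper's methods, reads were mapped to mm10 with GSNAP and FPKM were derived with Cufflinks. The deposited table holds 1 FPKM value per gene and mouse. Annotation, strand use in counting and the handling of reads with several matches are not given in the sources used here. The labels and the paper name different library kits and instruments.

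Log2(FPKM + 1) was fitted here with limma 3.58.1 (R 4.3.3; eBayes with a trend). A gene was kept where 3 or more of the lungs in the fit reached an FPKM of 1, and Benjamini-Hochberg adjustment ran over all genes kept, with a threshold of 0.05. This scale understates changes of low genes. Differences between strains are C3H minus C57B. 1 gene with failed estimates was left out, and every gene of chromosomes X, Y and M is listed at 0. The fits were also run on simulated data with independent noise for each gene. Those data hold no shifts shared by the genes of a library, so the calls above cannot be judged from them.

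The labels do not say whether mice shared a litter, cage or sequencing run, and p-values measure the spread between these mice. All 10 members were tested in every comparison, and not all of their values are printed. Named beside them were the 4 largest called changes of each of 3 lists and the genes nearest in pattern. Other genes of the lists were named after their values were seen, and 2 genes that these rules name are not reported here. The members and lists were chosen with earlier results of these data known. Shared sequence was computed from GENCODE M21 transcripts as 30-base sequences also found in other genes. The same fits were repeated with a pseudocount of 0.1, a filter at an FPKM of 0.1 or none, quantile or median ratio scaling, no trend, all 48 lungs together, and without each mouse. Leaving out C3HM mice 1 and 3 together, and joining Gstm1 with Gstm2-ps1, were added after the data were seen. The former leaves mouse 2 alone in its group.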

Additional observations from a re-analysis of the deposited data

Results flagged for a closer look

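Among 80 sets of 6 lungs (10 genes in 8 combinations of strain, injection and air, sexes pooled), 6 held a lung whose gap to the nearest other value passed Dixon's 95% critical value, where chance gives about 1 in 20. Gstm1 in C3HM mouse 1 (saline, room air) was at an FPKM of 595 (ratio 0.694). With Gstm2-ps1 joined to it, weighted by length, mouse 1 was at 642, C3HF mouse 27 next at 503 and C3HF mouse 26 lowest at 388. The ratio was not computed for these joined values. Mgst3 in C57BF mouse 38 (saline, room air) was low at an FPKM of 27.0 (ratio 0.704). In saline hyperoxia, Gsta3 in C3HM mouse 7 was at an FPKM of 184 (ratio 0.666) and Gstp1 in C3HF mouse 33 at 168 (ratio 0.663). In ATG hyperoxia, Gstt1 in C3HF mouse 34 was low at an FPKM of 34.8 (ratio 0.660) and Gsto1 in C57BF mouse 48 high at 338 (ratio 0.655). The change of Gstt1 in hyperoxia differed between the strains by 0.73 on the log2 scale in saline mice (limma, adjusted p = 0.045), a call that most fits leaving out 1 mouse did not keep.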

How the results depend on the processing

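The falls of Gstt1, Gstm1 and Gstm2 and the rises of Gsto1 and Gstp1 in saline mice and in ATG mice kept their direction and their call under every alternative run for them and without each single mouse, with log2 changes in saline mice between -1.84 and -1.60 for Gstt1, between -1.22 and -0.95 for Gstm1, between -0.72 and -0.47 for Gstm2, between 0.80 and 1.06 for Gsto1 and between 0.37 and 0.60 for Gstp1. Counts of called genes among the 10 moved by more than 1.5 times in some settings. For strain at baseline the count went from 1 to 0 with no filter and without C3HM mice 1 and 3, and to 2 (with Gsta3, adjusted p = 0.024) in 1 fit of all 48 lungs. For the interaction of strain and hyperoxia it went from 1 to 0 with a filter at an FPKM of 0.1, no filter, median ratio scaling, no trend, and without C3HM mice 1 and 3. Leaving out 1 mouse gave 0 to 2 calls for strain at baseline, 0 to 1 for strain and sex, 0 to 2 for strain and hyperoxia, 0 to 1 for ATG in hyperoxia and 1 to 2 for strain in ATG room air, the last 2 through Mgst1 without C57BF mouse 46. That mouse is a hyperoxia lung and does not enter the strain contrast in ATG room air, where the estimate for Mgst1 stayed at -0.44. Gstm5 in saline hyperoxia was called under quantile (-0.28) and median ratio (-0.27) scaling. The change of Mgst1 in ATG mice reversed to -0.0038 under quantile scaling, from 0.23, and was not called in either. Of 150 pairs of gene and comparison, 111 were called in no setting, and 55 of these changed sign in some setting, all with a size of at most 0.36. The causes were not tested.

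Over all genes, 1 fit of all 48 lungs raised the calls from 1832 to 2982 for strain at baseline, from 104 to 1915 for sex, from 0 to 748 for strain and sex, from 1880 to 2994 for strain and hyperoxia and from 6 to 306 for sex and hyperoxia. Without C3HM mouse 2 they were 4021, 3640, 2741, 3242 and 1270. Leaving out C3HM mouse 2 also raised the calls for ATG in room air from 3 to 32, for strain and ATG from 0 to 17 and for ATG and hyperoxia from 470 to 1093, and without filter these were 5, 2 and 313. For ATG in hyperoxia they lay between 443 and 1096 (without C57BM mouse 21), in place of 868. Without C3HM mice 1 and 3 the calls for sex were 30. Scaling moved the balance of higher and lower calls, beside the comparisons where this is given above. Under median ratio scaling it was 926 and 1066 for strain and hyperoxia (in place of 1422 and 458), 262 and 377 for ATG in hyperoxia (617 and 251), 177 and 363 for ATG and hyperoxia (265 and 205) and 37 and 38 for sex (37 and 67). Under quantile scaling it was 1776 and 1493 for strain in ATG room air (1332 and 1693). The median over all genes moved from -0.12 to -0.01 for sex, from -0.15 to -0.01 for strain and sex and from 0.14 to 0.01 for sex and hyperoxia under median ratio scaling. No paired analysis was possible because each mouse number belongs to 1 mouse.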
